A study of Mus musculus with 6 samples.

Results

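The Hippo pathway genes described here are the transcriptional coactivators Yap1 and Wwtr1 (which encodes TAZ), the TEAD transcription factors Tead1, Tead3 and Tead4, the LATS kinases Lats1 and Lats2, the YAP-binding scaffold Amotl2 and the target genes Ankrd1 and Ctgf (also named Ccn2). They were chosen by gene symbol. Of the 10 genes, 9 had a row among the 52550 genes of the count table, all 9 passed the filter on low counts that left 18849 genes, and Lats2 was not analysed here. RNA was sequenced from cells described as mouse alveolar type II (AT2) cells, the surfactant-secreting cells of the lung alveolus. They were obtained from dispase-digested lungs by magnetic selection of cells without CD45 and with EPCAM. All mice were C57BL/6 and of the genotype Sftpc+/creERT2; Grp78f/f, in which a tamoxifen-dependent Cre recombinase at the surfactant protein C locus can delete floxed Grp78. There were 3 libraries labelled Grp78KO, from mice labelled as given tamoxifen (Tmx), and 3 controls, from mice labelled as not given it. Tamoxifen and gene deletion cannot be told apart in this design. A time of 10 days after tamoxifen is attached to the controls as well, so their treatment is in doubt. No label gives the age of the mice or says that each library came from its own animal.

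Hippo signalling is a kinase cascade that reads cell contact, polarity and mechanical load. The MST kinases, helped by SAV1 and MOB1, activate the LATS kinases, and LATS phosphorylation holds YAP and TAZ in the cytoplasm and leads to their breakdown. YAP and TAZ that enter the nucleus bind TEAD proteins and switch on targets such as Ctgf, Cyr61 and Ankrd1, some of which, among them Amotl2 and Lats2, act back on the pathway. In the lung the pathway is known for roles in alveolar type I cell fate and in repair of the alveolus. Because much of the control acts on the proteins, RNA levels do not measure the activity of YAP and TAZ.

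The libraries held 110770711 to 128129307 counts in the group labelled Grp78KO and 131235053 to 149520306 in controls. Levels are given in CPM, counts scaled to a common library size, after TMM scaling, which corrects for differences in library composition. A gene was called where edgeR's quasi-likelihood test gave a Benjamini-Hochberg adjusted p under 0.05 over all 18849 genes tested. Hspa5, which encodes Grp78, averaged 7417 ± 3125 CPM in libraries labelled Grp78KO and 1189 ± 232 CPM in controls (SD, n = 3 each). That is the opposite of what the label names, and counts over the whole gene do not show whether the floxed part was removed. Directions below are therefore between libraries as labelled. The 10 AT2 markers were present in every library, but summed to 40710 to 51860 CPM in libraries labelled Grp78KO and 105200 to 121900 CPM in controls, and all 10 were called lower. Library 3 labelled Grp78KO lay nearest the controls for 6 of the 7 Hippo pathway genes called, and its Hspa5 level was 3809 CPM against 9262 and 9180 CPM in libraries 1 and 2 with that label.

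Both target genes Ctgf and Ankrd1 rose in libraries labelled Grp78KO, while Yap1, Tead3, Tead4, Lats1 and Amotl2 fell, and Wwtr1 and Tead1 did not pass the test. Of the 9 genes, 2 were thus called higher and 5 lower. Over all genes tested, 36.8% were called, 18.0% higher and 18.8% lower. The same 7 genes had groups that did not overlap, 2 of them with every library labelled Grp78KO above every control and 5 below. Of all genes tested, 51.6% had groups that did not overlap, 25.0% above and 26.6% below. The median log2 fold of the 9 genes was -0.35, against 0.02 over all genes tested. In bulk RNA, fewer cells of a type and less RNA per cell cannot be told apart.

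**Figure D1:**
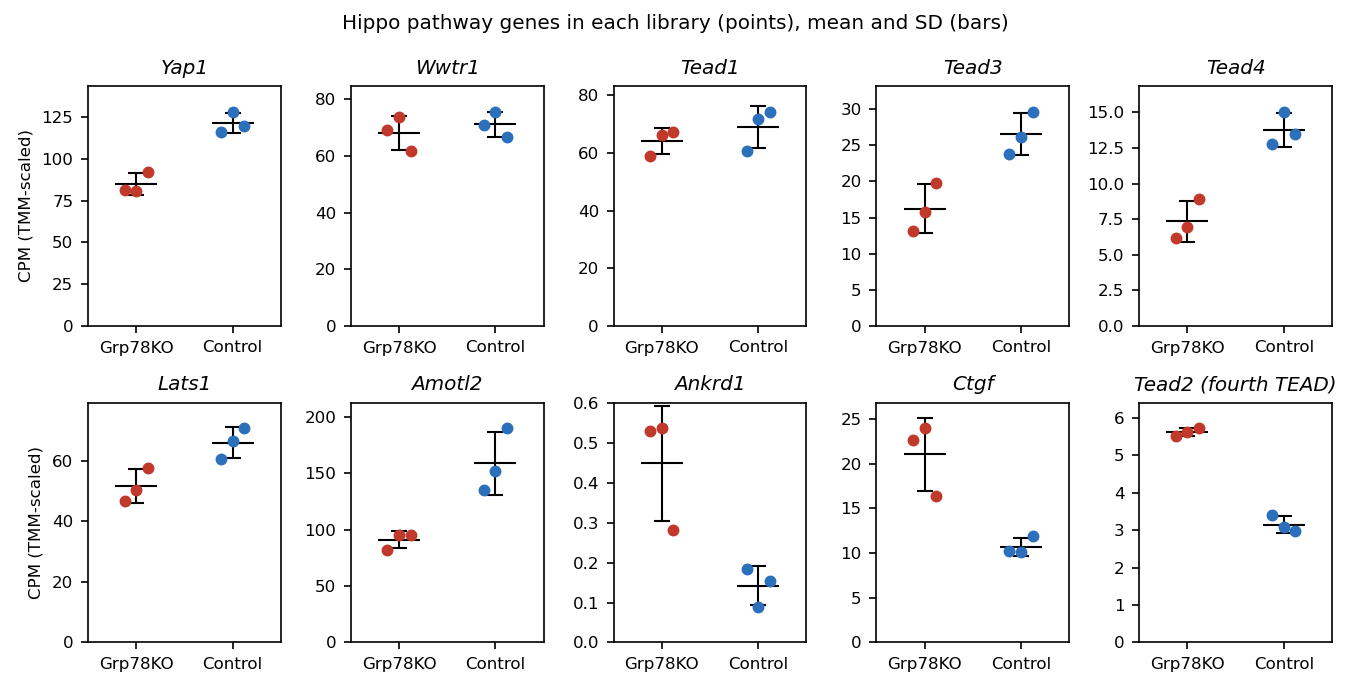
TMM-scaled CPM of the 9 Hippo pathway genes and of Tead2 in each of the 3 libraries labelled Grp78KO (red) and the 3 controls (blue), with the group mean and SD in black. Each axis starts at 0. The groups overlap for Wwtr1 and Tead1 and are separate for the other genes.

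Of the coactivators, Yap1 fell and Wwtr1 did not pass the test. Yap1 (chromosome 9, 7931999 to 8004596, minus strand, mm10) had 81.4, 80.9 and 92.4 CPM in libraries 1, 2 and 3 labelled Grp78KO, against 116, 128 and 119.7 CPM in controls 1, 2 and 3. Every library labelled Grp78KO lay below every control. Yap1 was 1.43-fold lower (log2 fold -0.52, SE 0.093, edgeR adjusted p = 0.0055). Wwtr1 (chromosome 3, 57455649 to 57575910, minus strand) had 69.1, 73.6 and 61.7 CPM in libraries labelled Grp78KO, against 71.0, 75.6 and 66.7 CPM in controls. The groups overlapped, with library 3 the lowest of its group on each side. The 95% interval of its log2 fold ran from -0.29 to 0.16 around -0.06 (SE 0.097, edgeR adjusted p = 0.646), and the sign turned with library-size and upper-quartile scaling.

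The balance between the paralogs was compared within each library, which needs no scaling between libraries. Per kilobase of annotated exon, Wwtr1 RNA exceeded Yap1 RNA in all 6 libraries. That order depends on the length used. Annotated exons cover 9257 bases in Yap1 and 4779 in Wwtr1, and their longest transcripts have 5282 and 4697 bases. By longest transcript Yap1 would exceed Wwtr1 in every control and in most libraries labelled Grp78KO. By annotated exon the log2 ratio of Yap1 to Wwtr1 was -0.72, -0.82 and -0.37 in libraries labelled Grp78KO and -0.24, -0.19 and -0.11 in controls. The groups were separate, with means of -0.64 ± 0.235 in libraries labelled Grp78KO and -0.18 ± 0.065 in controls (SD, n = 3 each). An exact two-sided permutation test gave p = 0.1, the smallest value that 3 libraries against 3 allow.

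The TEAD factors, which bring YAP and TAZ to DNA, differed from one another. Tead4 (chromosome 6, 128224288 to 128300823, minus strand) had 6.17, 6.94 and 8.95 CPM in libraries labelled Grp78KO, against 12.8, 15.1 and 13.5 CPM in controls. It was 1.87-fold lower (log2 fold -0.90, SE 0.154, edgeR adjusted p = 0.00457), with every library labelled Grp78KO below every control. Tead3 (chromosome 17, 28331671 to 28350817, minus strand) had 13.1, 15.8 and 19.8 CPM in libraries labelled Grp78KO, against 23.9, 26.2 and 29.7 CPM in controls. Its groups were also separate, and it was 1.63-fold lower (log2 fold -0.71, SE 0.161, edgeR adjusted p = 0.013). That call ended without library 2 labelled Grp78KO (edgeR adjusted p = 0.0522).

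Tead1 (chromosome 7, 112679318 to 112906807, plus strand), the TEAD with the highest level per kilobase of annotated exon, had 59.1, 66.4 and 67.4 CPM in libraries labelled Grp78KO, against 60.7, 71.7 and 74.3 CPM in controls. The groups overlapped. The 95% interval of its log2 fold ran from -0.35 to 0.14 around -0.10 (SE 0.105, edgeR adjusted p = 0.484), and the sign turned with library-size scaling. Tead2, the fourth TEAD, is not among the 10 genes, but is needed for the make-up of the family. It rose to 5.53, 5.62 and 5.73 CPM in libraries labelled Grp78KO, against 3.39, 3.07 and 2.98 CPM in controls (log2 fold 0.84, SE 0.126, edgeR adjusted p = 0.00294). Tead2 overlaps the leukocyte gene Cd37 on the other strand. Cd37 had 42 to 353 counts, and without a stated strand the reads of both genes cannot be told apart.

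Per kilobase of exon, Tead1 made up 47.4%, 47.2% and 42.8% of the summed TEAD level in libraries labelled Grp78KO, against 36.4%, 37.7% and 38.4% in controls. The groups were separate, with means of 45.8% ± 2.61 in libraries labelled Grp78KO and 37.5% ± 0.999 in controls (SD, n = 3 each; exact two-sided permutation p = 0.1, the smallest possible). Tead2 made up 11.4% ± 1.14 in libraries labelled Grp78KO and 4.91% ± 0.758 in controls. Tead3 made up 23.2% ± 2.1 and Tead4 19.6% ± 1.61 in libraries labelled Grp78KO, and 29.2% ± 1.6 and 28.3% ± 1.86 in controls (SD, n = 3). By this length Tead1 was the largest part and Tead2 the smallest in both groups. Annotated exons cover 13570 bases in Tead1 and 6714 in Tead3, and their longest transcripts have 9964 and 3443 bases. By longest transcript Tead3 would exceed Tead1 in every control, but in no library labelled Grp78KO.

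**Figure D2:**
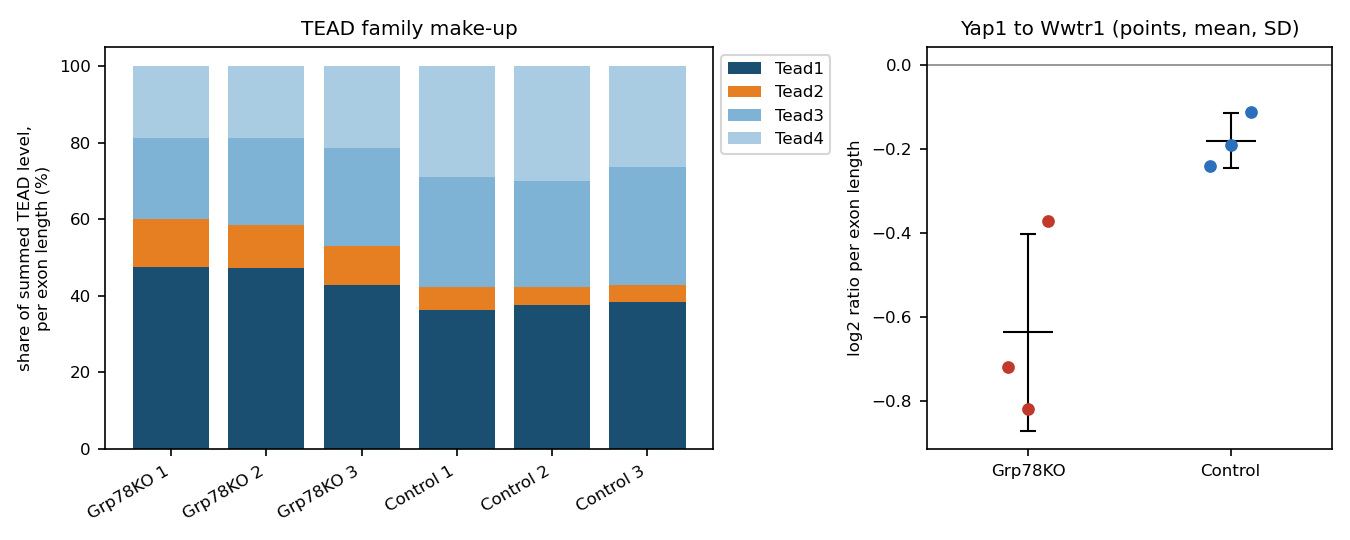
Left, stacked shares (%) of Tead1 to Tead4 in the summed TEAD level per exon length, with 1 bar per library. Right, log2 ratio of Yap1 to Wwtr1 per exon length in each library, with mean and SD. Values below 0 mean more Wwtr1 than Yap1 RNA per base of annotated exon, an order that depends on the length used. Tead1 takes 42.8% to 47.4% in libraries labelled Grp78KO and 36.4% to 38.4% in controls, and the ratio is lower in every library labelled Grp78KO than in every control.

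Lats1 and Amotl2, whose proteins restrain YAP and TAZ, both fell. Lats1 (chromosome 10, 7681214 to 7716460, plus strand), the kinase that phosphorylates YAP and TAZ, had 46.7, 50.4 and 57.8 CPM in libraries labelled Grp78KO, against 60.7, 66.4 and 70.8 CPM in controls. The groups were separate by a small margin, and Lats1 was 1.28-fold lower (log2 fold -0.35, SE 0.107, edgeR adjusted p = 0.0361). The Lats1 call was not stable: it ended without library 1 or 2 labelled Grp78KO (edgeR adjusted p = 0.127 and 0.12) and without control 2 or 3 (edgeR adjusted p = 0.103 and 0.0808).

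Amotl2 (chromosome 9, 102716672 to 102733418, plus strand) encodes an angiomotin family protein that binds YAP, and the gene is itself a target of YAP and TAZ. It had 82.2, 95.6 and 95.1 CPM in libraries labelled Grp78KO, against 136, 152 and 190.0 CPM in controls. Every library labelled Grp78KO lay below every control, and Amotl2 was 1.75-fold lower (log2 fold -0.81, SE 0.141, edgeR adjusted p = 0.00496).

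Among the targets, Ctgf rose. Ctgf (chromosome 10, 24595442 to 24598683, plus strand) encodes connective tissue growth factor, a secreted matricellular protein. It had 22.7, 23.99 and 16.4 CPM in libraries labelled Grp78KO, against 10.2, 10.1 and 11.9 CPM in controls. The groups were separate, with library 3 labelled Grp78KO nearest to control 3, and Ctgf was 1.96-fold higher (log2 fold 0.97, SE 0.157, edgeR adjusted p = 0.00375).

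Ankrd1 (chromosome 19, 36111961 to 36120099, minus strand) encodes an ankyrin repeat protein best known from heart and skeletal muscle. It was the least abundant of the 9 genes, with 72, 64 and 40 counts in libraries labelled Grp78KO, against 21, 12 and 20 counts in controls. In CPM these were 0.530, 0.538 and 0.283 in libraries labelled Grp78KO, against 0.184, 0.0887 and 0.153 in controls, and the groups were separate. Ankrd1 was 3.17-fold higher (log2 fold 1.66, SE 0.423, edgeR adjusted p = 0.0196). The call ended without library 1 labelled Grp78KO (edgeR adjusted p = 0.0707), library 2 labelled Grp78KO (edgeR adjusted p = 0.0748) or control 2 (edgeR adjusted p = 0.0751).

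The bases that TEAD proteins recognise have the core GGAATG, read as CATTCC on the other strand. This core was searched on both strands in the 250 bases before each RefSeq gene start on GRCm38.p6. At least 1 match lay before 5 of the 6 Hippo pathway genes of the count table that had a start in that set (Amotl2, Ankrd1, Tead3, Wwtr1 and Yap1, but not Lats1), and 14.4% of 27025 genes had one. Of 26 further genes used as targets of YAP and TAZ, 18 had a start in that set and 5 of these a match. The AP-1 core TGANTCA had no match before any of the 6, and 7.82% of genes had one. The stretches below are shown because they place the same letters before genes that rose, fell or did not pass the test. Each runs 5′ to 3′ on the strand of its gene, with the core in capitals.
Ankrd1, chr19:36120037-36120066, minus strand, core beginning 210 bases before the start: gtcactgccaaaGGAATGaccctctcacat
Ankrd1, chr19:36119950-36119979, minus strand, 123 bases before: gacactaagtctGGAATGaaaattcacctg
Amotl2, chr9:102717727-102717756, plus strand, 65 bases before: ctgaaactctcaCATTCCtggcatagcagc
Yap1, chr9:8004720-8004749, minus strand, 141 bases before: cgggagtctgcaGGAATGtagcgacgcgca
Wwtr1, chr3:57576029-57576058, minus strand, 136 bases before: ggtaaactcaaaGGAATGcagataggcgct
Tead3, chr17:28350706-28350735, minus strand, 123 bases before 1 of its starts: tccggccgggctCATTCCgtaCATTCCggc
Ankrd1, which was 3.17-fold higher, and Amotl2, which was 1.75-fold lower, both carry the core. In GENCODE M21 these matches of Ankrd1, Amotl2 and Tead3 lie in an annotated exon of another transcript of the gene, and those of Yap1 and Wwtr1 do not. A match is a run of letters and does not show that a TEAD protein binds there.

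On the per-kilobase scale Amotl2, Wwtr1 and Yap1 were the highest of the 9 genes in both groups. In libraries labelled Grp78KO, Amotl2 and Wwtr1 averaged 14.5 ± 1.21 and 14.3 ± 1.26 CPM per kilobase and overlapped, followed by Yap1 at 9.17 ± 0.703. In controls Amotl2 averaged 25.3 ± 4.45, Wwtr1 14.9 ± 0.923 and Yap1 13.1 ± 0.666 CPM per kilobase, with no overlap between neighbours (SD, n = 3). Ctgf, at 7.36 ± 1.41 CPM per kilobase, overlapped with Lats1 at 7.08 ± 0.77 in libraries labelled Grp78KO. In controls it overlapped with Tead3 and Tead4, at 3.75 ± 0.358 CPM per kilobase for Ctgf, 3.96 ± 0.435 for Tead3 and 3.83 ± 0.327 for Tead4. These levels and their order rest on annotated exon lengths, since transcript use was not measured. By longest transcript Yap1 would exceed Wwtr1 in the mean of both groups.

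Scaling affected the directions near 0. With scaling by library size alone the median log2 fold of all genes moved by 0.26, and 82.2% of all calls were higher, against 48.9% with TMM and 59.2% with upper-quartile scaling. Yap1, Tead3 and Lats1 then lost their calls (edgeR adjusted p = 0.107, 0.112 and 0.616), Tead4 and Amotl2 stayed lower and Ctgf and Ankrd1 stayed higher. Lats1 also missed the threshold with upper-quartile scaling (edgeR adjusted p = 0.0786). Relative to the median of all genes, the log2 fold of Yap1 was -0.53 under both TMM and library-size scaling, that of Tead4 was -0.92 and -0.91, that of Lats1 -0.37 under both, and that of Wwtr1 -0.08 under both.

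**Figure D3:**
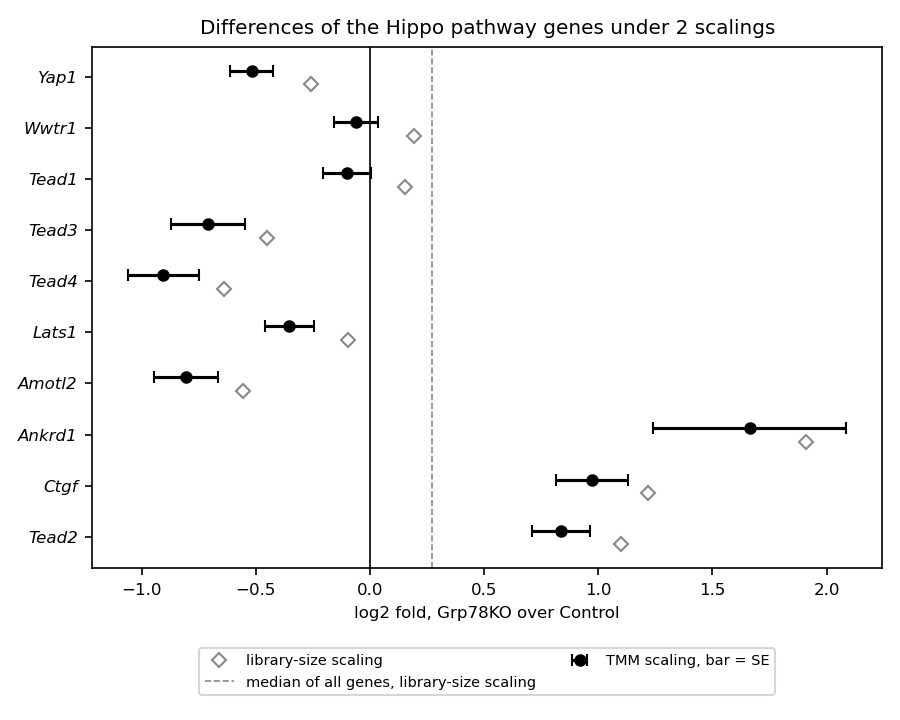
Log2 fold (Grp78KO over Control) of each gene with TMM scaling (black, bars are SE) and with library-size scaling (open diamonds). The dashed line is the median of all genes under library-size scaling, 0.27. Every diamond lies to the right of its black point by a similar amount, and the order of the genes is the same.

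Of 27 upstream kinases, scaffolds and apical or junctional inputs tested, 13 fell, 2 rose and 12 did not pass the test. Their median log2 fold was -0.25. Calls covered 55.6% of this list, against 36.8% of all genes tested (18.0% higher and 18.8% lower). The MST kinase genes Stk4 (log2 fold -0.54, SE 0.124, edgeR adjusted p = 0.0131) and Stk3 (log2 fold -0.25, SE 0.081, edgeR adjusted p = 0.0466) fell. So did Mob1b, a LATS cofactor gene (log2 fold -0.53), and Wwc1, which encodes the scaffold KIBRA (log2 fold -0.76). Taok3, an STE20-family kinase gene whose relatives act on MST kinases, averaged 94.4 ± 20.1 CPM in libraries labelled Grp78KO and 215 ± 33.6 CPM in controls (SD, n = 3; log2 fold -1.18, edgeR adjusted p = 0.00304). Frmd6, a FERM-domain gene linked to the pathway in flies and mammals, averaged 32.3 ± 0.492 CPM in libraries labelled Grp78KO and 62.9 ± 12.1 CPM in controls (SD, n = 3; log2 fold -0.96, edgeR adjusted p = 0.00228). Mink1, another STE20-family kinase gene, was lower as well (log2 fold -0.83).

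The upstream genes that rose were Ptpn14 and Dchs1. Ptpn14, a phosphatase gene whose protein binds YAP and which is also a target of YAP and TAZ, had 76.4, 76.2 and 60.6 CPM in libraries labelled Grp78KO, against 29.7, 34.5 and 32.3 CPM in controls (log2 fold 1.14, SE 0.118, edgeR adjusted p = 0.000819). Dchs1, a protocadherin gene, had a log2 fold of 0.79. Nf2, Sav1 and Mob1a, which encode Merlin and partners of the MST and LATS kinases, had log2 folds of -0.16, -0.00 and 0.12 and did not pass the test. With library-size scaling 5 upstream genes were lower and 4 higher. Without library 2 labelled Grp78KO 7 were lower and 1 higher, and without control 2, 1 was higher.

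Of 16 genes listed as brakes on the Hippo kinases, an action not tested here, 5 fell, 2 rose and 9 did not pass the test. Their median log2 fold was -0.16. The share called, 43.8%, was near the 36.8% over all genes tested. Both that rose encode LIM proteins of cell junctions and adhesions. Zyx, which encodes zyxin, had 77.5, 84.1 and 52.7 CPM in libraries labelled Grp78KO, against 25.1, 26.2 and 22.8 CPM in controls (log2 fold 1.53, SE 0.173, edgeR adjusted p = 0.00108). Ajuba, whose protein binds and restrains LATS kinases, averaged 32.9 ± 3.15 CPM in libraries labelled Grp78KO and 19.9 ± 3.5 CPM in controls (SD, n = 3; log2 fold 0.73, edgeR adjusted p = 0.00832). The 5 lower genes were Wtip, the third Ajuba-family gene in the list beside Ajuba and Limd1, and Slmap, Sike1, Fgfr1op2 and Stk26, which encode parts of the STRIPAK phosphatase complex. Slmap had the largest fall of these, with a log2 fold of -0.71 (edgeR adjusted p = 0.015). The count of 5 was fragile: 1 was lower without library 1 or 2 labelled Grp78KO or control 1 or 2, 0 with library-size scaling (where 3 were higher), 2 with upper-quartile or RLE scaling or no filter, 3 with limma-voom, and 9 without both libraries numbered 3.

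Among 14 tested genes of TEAD partners and of the turnover of YAP and TAZ, 3 rose, 4 fell and 7 did not pass the test. Their median log2 fold was -0.22, and 50% were called, against 36.8% of all genes tested. The vestigial-like proteins compete with YAP and TAZ for TEADs. Vgll4, a repressor of TEAD activity, had 42.9, 46.5 and 55.7 CPM in libraries labelled Grp78KO, against 83.8, 81.6 and 104 CPM in controls (log2 fold -0.89, SE 0.137, edgeR adjusted p = 0.00307). Vgll3 was at a lower level and rose, with 2.82, 3.06 and 2.38 CPM in libraries labelled Grp78KO, against 1.17, 1.09 and 1.39 CPM in controls (log2 fold 1.18, SE 0.195, edgeR adjusted p = 0.004). Vgll1 and Vgll2 had too few counts to be tested. Tead2 and Otub1 were the other genes that rose, and Fbxw7 and Csnk1e were among the others that fell. With the libraries paired by number 7 genes were lower. Without library 1 or 2 labelled Grp78KO or control 2, and with library-size or upper-quartile scaling, 1 was lower.

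**Figure D4:**
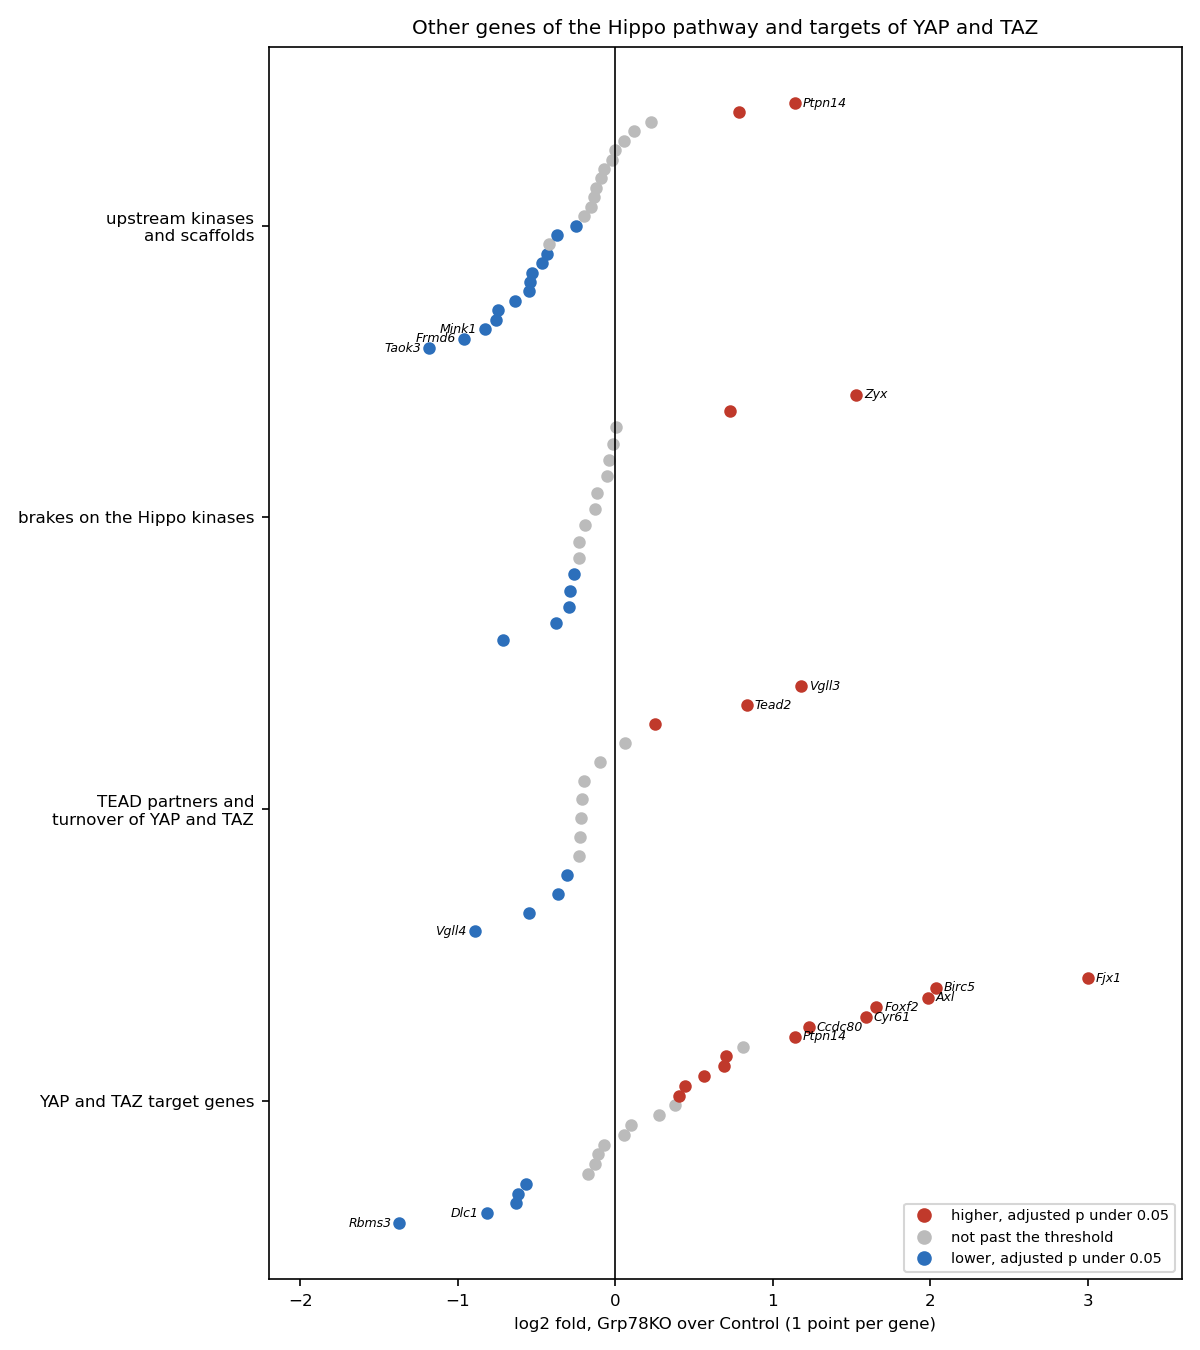
Log2 fold (Grp78KO over Control) of every tested gene of 4 lists, 1 point per gene, sorted within each list and coloured by the edgeR call. Names are given where the log2 fold of a called gene is beyond 0.8. In the list of targets 12 points are red and 5 blue, and in the list of upstream genes 2 are red and 13 blue.

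Beyond Ctgf, Ankrd1 and Amotl2, 26 further genes used as targets of YAP and TAZ were tested, of which 12 rose, 5 fell and 9 did not pass the test. Calls thus covered 65.4% of them, against 36.8% of all genes tested. Their median log2 fold was 0.39, against 0.02 over all genes tested. Axl, a receptor tyrosine kinase gene, had 22.8, 24.2 and 20.9 CPM in libraries labelled Grp78KO, against 4.605, 4.44 and 8.07 CPM in controls (log2 fold 1.99, SE 0.232, edgeR adjusted p = 0.00119). Cyr61, which encodes the matricellular protein CCN1 and is a close relative of Ctgf, had 272, 307 and 125 CPM in libraries labelled Grp78KO, against 67.4, 76.4 and 89.7 CPM in controls (log2 fold 1.59, SE 0.316, edgeR adjusted p = 0.00878). As for Ctgf, library 3 labelled Grp78KO lay closest to the controls.

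Foxf2, a transcription factor gene of mesenchyme, had 1.75, 1.83 and 1.59 CPM in libraries labelled Grp78KO, against 0.526, 0.488 and 0.620 CPM in controls (log2 fold 1.66, SE 0.213, edgeR adjusted p = 0.00163). Tgm2, which encodes a transglutaminase, averaged 122 ± 14.03 CPM in libraries labelled Grp78KO and 75.4 ± 2.79 CPM in controls (SD, n = 3; edgeR adjusted p = 0.00314). Fjx1, Birc5, Ccdc80, F3, Nt5e, Tgfb2 and Areg were also called higher. The 5 that fell were Rbms3, Dlc1, Myof, Dock5 and Arhgef17. Rbms3, an RNA-binding protein gene, had 17.0, 19.6 and 26.5 CPM in libraries labelled Grp78KO, against 49.98, 53.3 and 60.0 CPM in controls (log2 fold -1.37, SE 0.169, edgeR adjusted p = 0.00144). With library-size scaling 1 target was lower. Without library 1 or 2 labelled Grp78KO or control 2, 2 or 3 were lower, while 9 to 12 were higher without any 1 library.

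**Figure D5:**
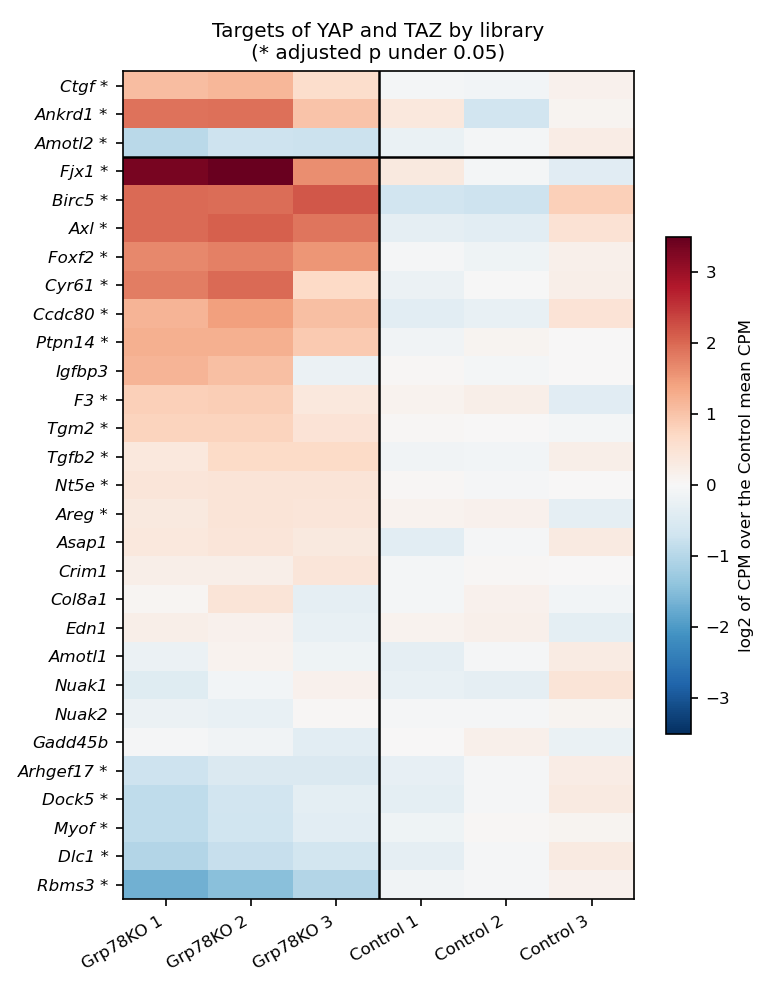
Log2 of CPM over the mean CPM of controls for Ctgf, Ankrd1 and Amotl2 (above the line) and 26 further targets, with libraries labelled Grp78KO left of the vertical line and controls right of it. Asterisks mark genes called by edgeR. Ctgf and Ankrd1 are red and Amotl2 blue in all 3 libraries labelled Grp78KO, and library 3 with that label is paler for most of the genes called.

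Fibroblast and mesothelial markers were higher in the libraries labelled Grp78KO. Beside the counts below, 18.0% of all genes tested were called higher and 18.8% lower. Of 12 fibroblast and smooth muscle markers, 11 were called higher, with 7 or 8 without library 1 or 2 labelled Grp78KO or control 1 or 2, and 7 with no filter on low counts. They summed to 1223, 1319 and 1352 CPM in libraries 1, 2 and 3 labelled Grp78KO, against 232, 230.0 and 586.5 CPM in controls 1, 2 and 3, and none was at 0 in any library. Col1a1, Col1a2 and Col3a1 gave most of each sum, and the markers differed in their order. Library 3 labelled Grp78KO, with the highest sum, had the highest Col1a1, Col1a2, Lum and Mfap4 of its group. It had the lowest Col3a1, Dcn, Pdgfra, Acta2, Tagln, Myh11 and Des, with Pdgfrb between. Acta2 had 20.1, 20.8 and 9.10 CPM in libraries 1, 2 and 3 labelled Grp78KO. Library 3 with that label also had the lowest Ctgf, Ankrd1 and Cyr61 of its group. Control 3 had the highest Ctgf and Cyr61 of the controls but not the highest Ankrd1. Of 6 mesothelial markers, 5 were called higher, with sums of 194 to 224 CPM in libraries labelled Grp78KO and 111 to 124 CPM in controls. Of 10 endothelial markers, 1 was called higher, with sums of 484 to 821 CPM in libraries labelled Grp78KO and 476 to 520.1 CPM in controls, with 8 called higher without library 3 labelled Grp78KO and 0 without any other 1 library. Of 7 tested leukocyte markers, 1 (C1qc) was called higher. The count was 0 with DESeq2, limma-voom, no filter or 1 CPM in 3 libraries and without control 1, 2 or 3, and it was 2 with library-size scaling, with the libraries paired by number and without both libraries numbered 3. Without library 3 labelled Grp78KO, 1 leukocyte marker was called lower. The sum over 9 was 91.0 CPM in library 3 labelled Grp78KO, 11.96 and 12.3 CPM in the other libraries with that label, and 11.6 to 13.3 CPM in controls, with Cd3e and Marco at 0 counts in at least 1 library. Of 8 airway markers none was called, with sums of 32190 to 35750 CPM in libraries labelled Grp78KO and 31060 to 56730 CPM in controls, and 4 were called lower without control 3. The part of these cells in the levels of Ctgf, Ankrd1 and the other targets was not tested.

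AT2 cells give rise to alveolar type I cells, the gas-exchange cells. Of 10 markers of type I cells, 4 fell (Ager, Aqp5, Rtkn2 and Clic5), 1 rose and 5 did not pass the test. The share called was 50%, against 36.8% of all genes tested. Ager averaged 475 ± 75.9 CPM in libraries labelled Grp78KO and 1177 ± 69.6 CPM in controls (SD, n = 3; log2 fold -1.31, edgeR adjusted p = 0.00108). Pdpn, the gene that rose, averaged 15.5 ± 1.96 CPM in libraries labelled Grp78KO and 7.44 ± 0.281 CPM in controls (SD, n = 3; log2 fold 1.06, edgeR adjusted p = 0.000994). With the libraries paired by number, with DESeq2, with upper-quartile or RLE scaling, or without library 3 labelled Grp78KO, 3 of these markers were called higher, and with library-size scaling 4 were higher and 2 lower.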

How the data were processed

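The authors deposited raw counts per gene symbol for 6 libraries. Per the labels' protocols, libraries were built with NEBNext Ultra reagents and sequenced from both ends. Build mm10 and edgeR 3.7 are named in the submitters' processing notes; for the aligner, counting program, annotation and strand, the sources used here give nothing. In each library, genes with 2 counts outnumbered genes with 1 count by 1.63 to 1.76 times, so low values may carry more error than they imply.

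Counts were filtered with filterByExpr, scaled by TMM and tested with edgeR 4.0.16 in R 4.3.3 (quasi-likelihood F test, robust, group as the only term). The SE was taken as the fold on the log2 scale over the root of F, and 95% intervals use the test's degrees of freedom. The common biological coefficient of variation was 22.3%. p-values measure the spread between these libraries, which may be technical. Replicates of a group all differed by more than counting noise, with a chi-square of 8.07 to 171 per gene on counts divided by 2. Libraries 1 and 2 differed least, at 8.07 for those labelled Grp78KO and 20.1 for controls. Pairs with a library numbered 3 gave 79.3 to 171. No result of a test of the procedure on simulated data is given here. Positions and exon lengths come from GENCODE M21 on mm10, and promoter sequences from RefSeq on GRCm38.p6. Of 7 overlapping genes checked, Cd37 came nearest to the counts of its partner, Tead2.

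Deviations from group means correlated at 0.174, 0.147 and 0.281 between libraries of the same number, all above 0.1. Library 1 labelled Grp78KO and control 2, which differ in number, also passed 0.1, at 0.116. The other pairs of unlike number correlated at 0.0897 or below. Pairing by number entered only alternative runs, among them the replicate block, and the main test had group as its only term. What each number stands for is not known here. Alternatives were DESeq2 1.42.0, limma-voom (limma 3.58.1), other scalings and filters, the replicate block, and leaving out libraries.

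The genes and lists were chosen with earlier results of these data known. The text names the 10 Hippo pathway genes, Hspa5, Tead2 and, of each list, the 4 genes with the lowest adjusted p; other names were chosen after their values were seen. Of the genes and lists this covers, 1 list and some genes are not reported here. Ptpn14 and Amotl1 stand in both the upstream and the target list.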

Additional observations from a re-analysis of the deposited data

How the results depend on the processing

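Over all genes, 6938 were called; leaving out 1 library gave 3706 to 8548 (3981 without library 1 labelled Grp78KO, 3779 without library 2 and 3706 without control 2), leaving out both libraries numbered 3 gave 10581, and the replicate block gave 8415. Of the Hippo pathway genes, 2 were called higher and 1 to 2 without 1 library; requiring 1 CPM in 3 libraries removed Ankrd1 from the test and left 1. The 5 called lower became 2 with library-size scaling and 3 to 5 without 1 library. The replicate block changed no call of these 9 genes. Wwtr1 changed sign with library-size scaling (log2 fold 0.19), upper-quartile scaling (0.013) and without library 3 labelled Grp78KO (0.0050), with -0.12 to 0.0050 over the libraries left out, and Tead1 with library-size scaling (0.15). Those scalings moved the median of all genes upward; the cause of the change without library 3 was not tested. Across the 29 genes taken by the naming rule and 15 alternatives, 434 log2 folds could be computed: 406 kept direction and side of the threshold, 24 lost a call, 0 gained one and 4 changed sign.

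With the libraries paired, sign flips gave exact p = 0.25, the smallest that 3 pairs allow, for both the Yap1 to Wwtr1 ratio (difference in log2 -0.46) and the Tead1 share (difference 8.31 percentage points). Longest transcripts in place of exon unions, and leaving out any 1 library, kept the sign of the difference between groups for both. That sign does not cover the order of genes within a library. With longest transcripts the order changes in some libraries for Yap1 and Wwtr1, and for Tead1 and Tead3. The ratio of Lats1 to Lats2 was not run, since Lats2 was not analysed here. Depth limits Ankrd1 most, at 12 to 72 counts.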
